A study of Homo sapiens with 12 samples.

Results

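The 55 genes described here act in G2 and mitosis, and all 55 were found by symbol among the 19447 rows of the deposited count table. They are listed by name, with no threshold on a measured value, and the list was made with earlier results of these data known. K562 is a human chronic myeloid leukemia line with the BCR-ABL fusion. Its derivative K562/IM was selected by stepwise exposure to imatinib (IM), a BCR-ABL kinase inhibitor, and was then kept in medium with 5 µM IM. The 4 groups, each of 3 libraries, were untreated K562, K562 with 6 µM lycorine (K562+L), K562/IM without lycorine, and K562/IM with 6 µM lycorine (K562/IM+L), lycorine being an alkaloid of Amaryllidaceae plants. The study names no single-cell clone, and the time of lycorine exposure before sequencing is not given. Neither is it stated whether IM was present at harvest. The libraries were made from polyA-enriched RNA, and no source states that the 3 samples of a group came from separate cultures, so that the p-values measure the spread between these samples only, which may be technical.

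CDK1 bound to A- and B-type cyclins drives a cell from G2 into mitosis, Aurora and Polo kinases and kinesin motors build the spindle, and the spindle checkpoint holds back the anaphase-promoting complex until every kinetochore is attached to microtubules. Transcripts of these genes are low in G1 and peak in G2 and mitosis, so that in a bulk sample their level follows the share of cells in these phases as well as the RNA of each cell. They are repressed in resting cells by the DREAM complex and activated by B-MYB with MuvB and by FOXM1. Many of their promoters hold a cell cycle genes homology region (CHR), which MuvB contacts, and CCAAT boxes, which NF-Y binds.

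The promoter letters of 8 of the genes are shown because the same short elements recur among them. RefSeq (GRCh38.p14) gave a window of 250 bases before to 50 after the transcription start for 46 of the 55 genes, and the 120 bases just before the start are printed 5′ to 3′ on the strand of the gene. Capitals mark the CHR letters TTTGAA and the CCAAT box, each on either strand, so that TTCAAA and ATTGG are marked too. The windows of FOXM1, BUB3, TTK, UBE2C, AURKA, BIRC5, TPX2, RACGAP1 and CDCA2 were not analysed here. KIF11, NCAPG and GTSE1 are shown as genes with some of the widest differences between the lycorine comparisons, PRC1, MKI67, PLK1 and CCNB2 as further genes with a CHR, and CCNB1 as a gene without these letters in the stretch. ASPM, KIF14 and KIF20B differed more widely than GTSE1 and are not shown. Their TTTGAA letters begin at -113 in ASPM, 2 in KIF14, and 25 and 31 in KIF20B, relative to the start. None of these lies in the last 60 bases before the start, so the genes shown do not stand for all that differed most.
KIF11, chr10:92593010-92593129, plus strand: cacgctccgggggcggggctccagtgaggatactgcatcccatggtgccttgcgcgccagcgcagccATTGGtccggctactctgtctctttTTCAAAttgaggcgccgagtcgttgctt
NCAPG, chr4:17810859-17810978, plus strand: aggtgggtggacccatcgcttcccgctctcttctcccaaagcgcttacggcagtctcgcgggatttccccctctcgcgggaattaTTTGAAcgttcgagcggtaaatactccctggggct
GTSE1, chr22:46296750-46296869, plus strand: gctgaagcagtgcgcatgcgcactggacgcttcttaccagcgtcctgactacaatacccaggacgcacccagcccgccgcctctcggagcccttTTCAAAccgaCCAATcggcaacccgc
PRC1, chr15:90994536-90994655, minus strand: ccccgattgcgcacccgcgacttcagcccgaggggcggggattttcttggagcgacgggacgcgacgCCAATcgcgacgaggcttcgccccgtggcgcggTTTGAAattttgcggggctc
MKI67, chr10:128126424-128126543, minus strand: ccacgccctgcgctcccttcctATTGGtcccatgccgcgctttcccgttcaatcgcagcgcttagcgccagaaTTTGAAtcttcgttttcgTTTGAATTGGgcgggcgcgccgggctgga
PLK1, chr16:23678769-23678888, plus strand: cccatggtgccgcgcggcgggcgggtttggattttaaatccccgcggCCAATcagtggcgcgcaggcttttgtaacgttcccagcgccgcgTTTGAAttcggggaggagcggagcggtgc
CCNB2, chr15:59105026-59105145, plus strand: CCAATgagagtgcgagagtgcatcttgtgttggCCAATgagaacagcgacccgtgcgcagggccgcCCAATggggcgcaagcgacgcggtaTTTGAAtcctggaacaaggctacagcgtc
CCNB1, chr5:69167030-69167149, plus strand: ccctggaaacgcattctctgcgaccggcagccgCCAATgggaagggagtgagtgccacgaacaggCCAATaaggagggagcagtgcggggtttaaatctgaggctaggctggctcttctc

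TTTGAA occurred in 34 of the 46 windows (73.9%), against 12.02% of the 15096 windows of all genes in the count table and 15.4% of all 27305 RefSeq windows. CCAAT occurred in 34 (73.9%, against 36.5% and 35.7%), and both in 28 (60.9%, against 5.04% and 6.08%). The letters of these elements overlapped in 2 genes. In 20 of the 46 genes (43.5%) a CHR lay within the last 60 bases before the start, as in KIF11, NCAPG, GTSE1, PRC1, MKI67, PLK1 and CCNB2, against 2.14% of the genes in the table. A TATA box, searched as TATAAA on both strands, was found in 3 windows (6.52%, against 9.59%). These are matches of letters, not measured binding, and other forms of the CHR were not searched.

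**Figure D1:**
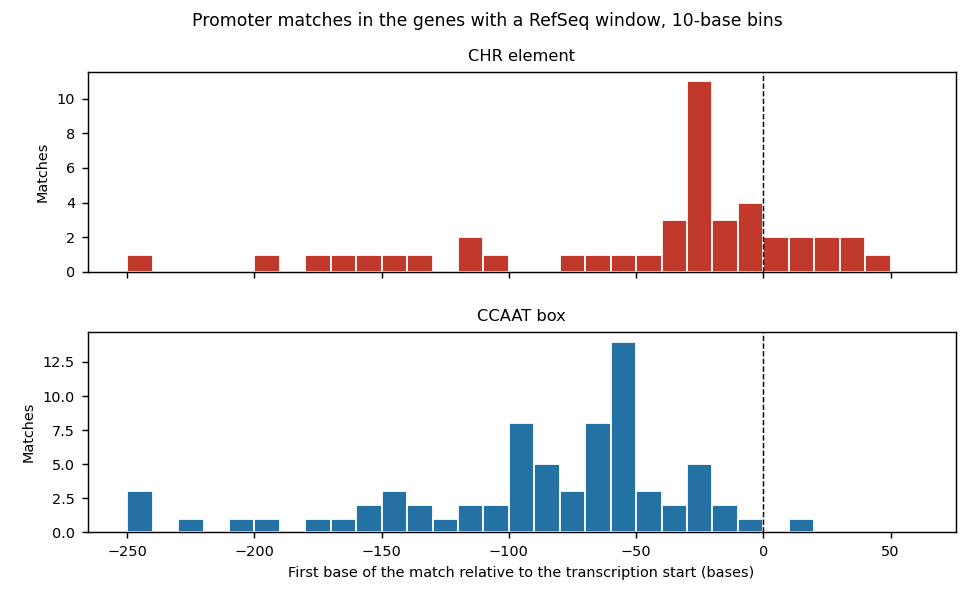
Position of each CHR match (TTTGAA, upper panel) and each CCAAT match (lower panel), on either strand, in the 46 RefSeq promoter windows. The horizontal axis is the first base of the match relative to the transcription start (dashed line) in bases, the vertical axis the number of matches in each 10-base bin. CHR matches are most frequent just before the start and CCAAT matches farther upstream.

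The libraries held 75093844 to 107344598 counts. Levels are given as CPM, the counts scaled to a common library size after edgeR's TMM factors. Gene positions are those of GENCODE release 29 on GRCh38, and their ends can differ from the RefSeq starts used for promoters. Low counts lay at a multiple of 4 or 1 above it more often than whole numbers taken equally often. Low counts need not be spread evenly, so this excess does not settle how they arose. The counting is not described, and the counting error was not read from the totals. The labels of the K562/IM+L libraries were set beside ABCB1, the drug efflux pump P-gp, which stood at 1.68, 1.86 and 1.72 CPM in K562, 3.83, 3.84 and 5.14 in K562+L, 23.0, 21.9 and 25.8 in K562/IM and 0.706, 0.490 and 1.06 in the labelled libraries. It was thus highest in K562/IM and lowest, below every K562 library, in those labelled K562/IM+L. The summed level of 13 erythroid genes that K562 expresses was 6566 to 8864 CPM in K562, 4539 to 5086 in K562+L, 3059 to 3297 in K562/IM and 34878 to 48080.3 in the labelled libraries, with all 13 at 1 CPM or more in each group. Single genes did not all follow the sum. The labelled libraries overlapped K562 in GATA1 (213 to 276 against 189 to 263 CPM), TAL1 (109.4 to 369 against 41.7 to 109.6) and TFRC (832 to 1107 against 647 to 865). HBE1 was higher in K562/IM, at 538 to 547 CPM, than in K562, at 79.9 to 116. A lower ABCB1 from treatment and a label that does not describe these libraries cannot be told apart here. The study's figures give that group another code than its sample labels do. These 3 libraries stand apart, and they are called the labelled libraries throughout. The comparisons of K562+L and of K562/IM with K562 do not use them. The summed level of 4 T cell markers was 21.9 to 23.4 CPM in K562/IM, nearly all of it CD3D, and at most 2.89 elsewhere, with CD2 at 0 counts in K562+L and in the labelled libraries. Of 4 B cell markers, MS4A1 was at 0 counts in every library, and of 8 monocyte and granulocyte markers S100A8 and S100A9 were. The part of these differences in the results on mitotic genes was not tested.

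More of the 55 genes were called higher than lower in K562+L against K562, and more lower than higher in the labelled libraries against either K562/IM or K562. In K562+L against K562, 19 of the 55 genes passed an adjusted p of 0.05 upward and 5 downward (quasi-likelihood test of edgeR, with p-values adjusted by Benjamini and Hochberg over all genes tested, n = 3 a group, as for every adjusted p given), against 18.2% higher and 19.0% lower among all 12927 genes tested. The median log2 fold change of the 55 was 0.19, that of all genes -1.2e-04. The group moved within a narrow band, from -0.48 for CKS2 to 0.91 for ASPM, so that every gene stayed under the absolute log2 fold change of 1 that 2.38% of all genes passed upward and 4.01% downward. The count of higher genes fell to 12 without replicate 2 of K562, and also without replicate 1 or replicate 3 of K562+L. In these fits the higher calls over all genes fell too, from 2359 with all libraries to 1327, 1390 and 1439. The count of lower genes ranged from 0 to 7 when a library was left out, and each of replicates 2 and 3 of K562 and all 3 of K562+L moved it by more than 1.5 times. Over all genes the lower calls ranged from 1544 to 2932 in the same fits, against 2462 with all libraries.

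Between the untreated lines, 3 of the 55 genes were higher and 15 lower in K562/IM than in K562, against 30.1% and 27.1% of the 13406 genes tested. The share called lower was near that background and the share called higher under it. The median was -0.040 (all genes 0.042) and turned to 0.15 with library totals in place of TMM, a scaling that put all genes at 0.23 and the calls at 18 higher and 9 lower. Changes ran from -0.85 for AURKA to 0.49 for TOP2A, whereas 13.9% of all genes rose and 5.29% fell by more than 1. Without replicate 1 of K562 the higher calls numbered 9, and without replicate 1 of K562/IM the lower calls numbered 9. Over all genes the first fit called 4510 higher, against 4029 with all libraries. The second called 2964 lower, against 3632.

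In the labelled libraries against K562/IM, 6 of the 55 genes were higher and 25 lower, against 33.2% and 33.6% of the 13727 genes tested, with a median of -0.27 (all genes -0.0069). With library totals in place of TMM the split was 1 higher and 39 lower, and the median of all genes moved to -0.19. SPC25, KIF11 and KIF14 fell by more than 1 on the log2 scale, as 13.8% of all genes did, while 14.7% of all genes rose by as much. The number of higher genes, 6 with all libraries, was 2 without replicate 1 or replicate 3 of K562/IM or replicate 1 of the labelled libraries, and 3 without replicate 2 of K562/IM. Over all genes the higher calls in these fits numbered 4052 to 4152, against 4554 with all libraries. Against K562, 2 genes were higher and 34 lower in the labelled libraries (background 28.2% and 27.8% of 13307), with a median of -0.39 (all genes 0.020). SPC25, MAD2L1, CDK1, KIF11, CCNA2 and BUB1B fell by more than 1, a size that 8.91% of all genes reached downward and 14.9% upward. In bulk RNA, fewer cells in G2 and mitosis and less of these transcripts per cell cannot be told apart.

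The 55 genes together took up 0.819, 0.761 and 0.702% of all counts in the K562 libraries and 0.907, 0.899 and 0.971% in K562+L. In K562/IM they took up 0.848, 0.841 and 0.854%, and in the labelled libraries 0.545, 0.534 and 0.650%. The 3 labelled libraries were thus below the other 9, and the 3 K562+L libraries above them. These are shares of raw counts without TMM, so they depend on the other genes. The 10 largest genes took 7.95 to 9.61% of counts in the labelled libraries and 3.79 to 5.24% in the others. By raw share K562/IM lay above K562, with means of 0.847 and 0.761%, whereas the median log2 fold change with TMM was -0.040. The mean CPM was highest in K562+L for 37 of the 55 genes and lowest in the labelled libraries for 44. The order of groups was not computed over all genes, so these counts have no background. The map of the 55 genes by library shows this order of groups, with CDC25C, AURKA, PTTG1, CCNB2 and NUSAP1 among the genes that departed from it.

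**Figure D2:**
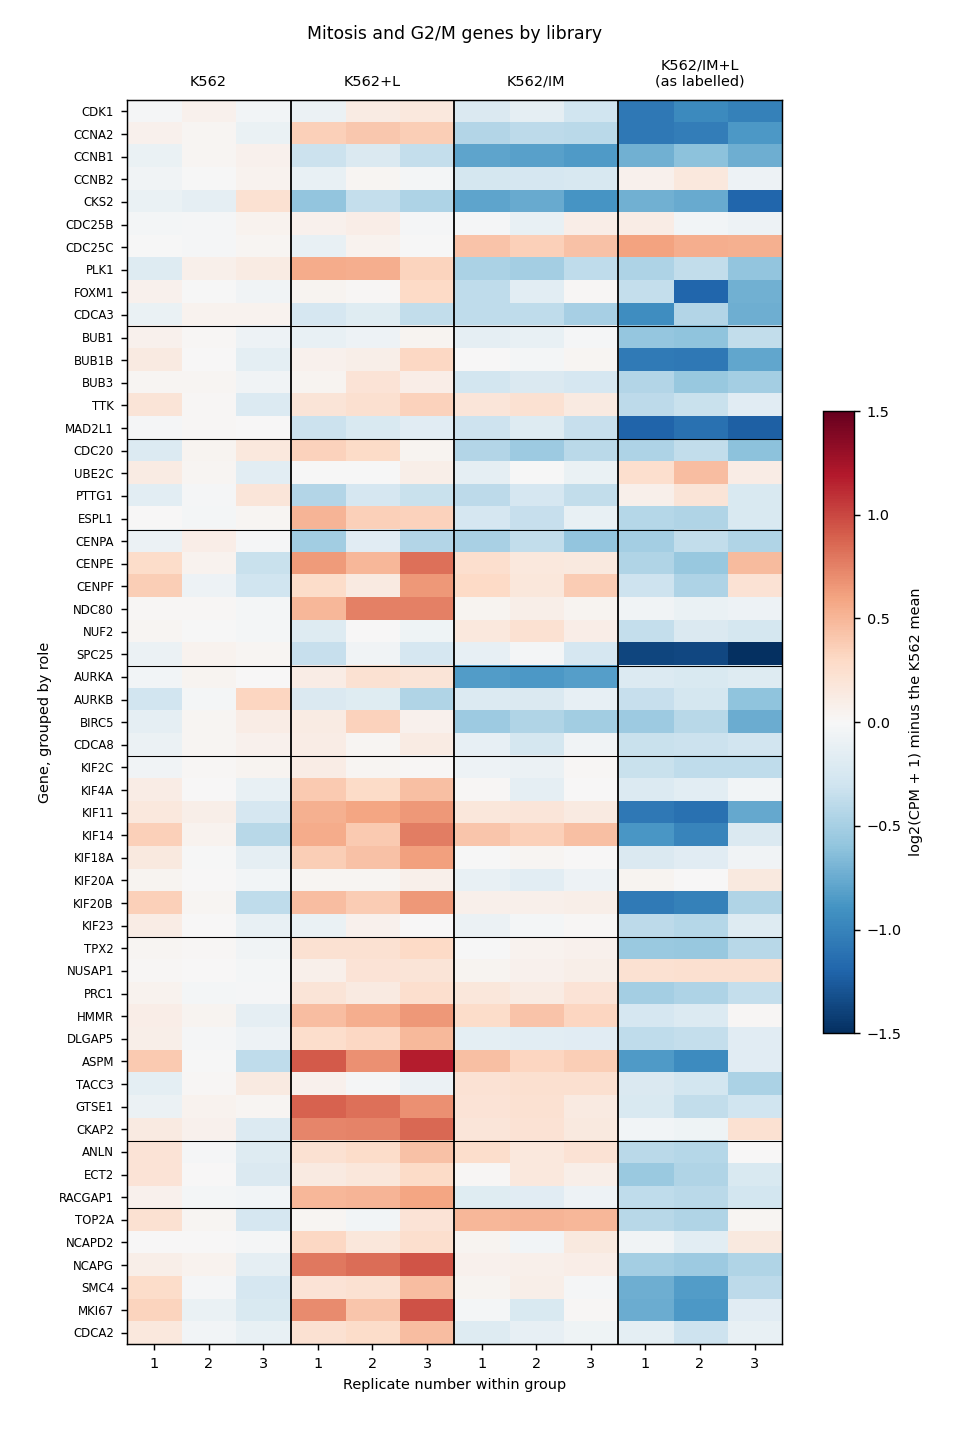
Level of each of the 55 genes in the 12 libraries, as log2(CPM + 1) minus the mean of the 3 K562 libraries (colour scale), with genes in rows grouped by role and libraries in columns. Most genes are above K562 (red) in K562+L and below it (blue) in the labelled libraries.

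CDK1 and its cyclins, the role with the most genes, also had the largest number lowered in K562/IM. Its share was not the highest, since 3 of the 4 genes of anaphase and its trigger were lower there. Of the 10 genes of this role, 7 were lower and 1 higher in K562/IM than in K562, 2 were higher and 2 lower in K562+L than in K562, and in the labelled libraries 2 were lower and 1 higher than in K562/IM. Of all genes tested, 27.1% were lower and 30.1% higher in the first comparison. In the second 18.2% were higher and 19.0% lower, and in the third 33.6% were lower and 33.2% higher. Counts by role rest on few genes. CDK1 (chr10:60778331-60794852, plus strand), the kinase of mitotic entry, stood at 252, 267 and 247 CPM in K562, 241, 278 and 285 in K562+L, 219.7, 232 and 208 in K562/IM and 121, 131 and 126 in the labelled libraries. The labelled libraries were below all 9 others, and K562 and K562+L overlapped. The log2 fold change was -0.78 (SE 0.070, adjusted p = 5.5e-05) against K562/IM and -1.04 (SE 0.080, adjusted p = 5.6e-05) against K562. In K562/IM against K562 it was -0.22 (SE 0.072, adjusted p = 0.0335), a call that 6 of 16 alternatives lost.

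CCNA2 (chr4:121816444-121823933, minus strand), cyclin A2 of S phase and G2, stood at 239.8, 234 and 215 CPM in K562, 295, 304 and 298 in K562+L, 169.6, 175 and 173 in K562/IM and 109, 111 and 126 in the labelled libraries. None of the groups overlapped, in the order K562+L, K562, K562/IM and labelled libraries. Its log2 fold changes were 0.38 (SE 0.078, adjusted p = 0.00791) in K562+L against K562, -0.41 (SE 0.070, adjusted p = 0.00166) in K562/IM against K562 and -0.56 (SE 0.079, adjusted p = 5.5e-04) in the labelled libraries against K562/IM. CCNB1 (chr5:69167010-69178245, plus strand), cyclin B1, had another order. Its values were 253, 278 and 285 CPM in K562, 217, 233 and 212 in K562+L, 156, 154 and 150.3 in K562/IM and 165, 177 and 164 in the labelled libraries. K562 was highest and K562/IM lowest without overlap, with a log2 fold change of -0.83 (SE 0.072, adjusted p = 6.4e-05) in K562/IM and -0.30 (SE 0.084, adjusted p = 0.0243) in K562+L, each against K562. The second of these calls was lost in 6 of 16 alternatives, among them the fits without replicate 2 or 3 of K562 and those without replicate 1 or 3 of K562+L.

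PLK1 (chr16:23677656-23690367, plus strand), the Polo kinase of mitotic entry and spindle assembly, stood at 151, 183 and 188 CPM in K562, 256, 253 and 219 in K562+L, 124, 121 and 133 in K562/IM and 126, 134 and 115 in the labelled libraries. K562+L lay above all other libraries, and the other groups lay below K562 and overlapped each other. Its log2 fold change was 0.48 (SE 0.11, adjusted p = 0.0129) in K562+L, a call lost without replicate 1 of K562+L, and -0.47 (SE 0.10, adjusted p = 0.00456) in K562/IM, each against K562. FOXM1 (chr12:2857681-2877155, minus strand), a transcription factor of G2/M genes, held 72.6, 69.2 and 66.9 CPM in K562, 71.5, 70.5 and 85.9 in K562+L, 53.1, 62.0 and 70.4 in K562/IM and 54.2, 30.0 and 41.8 in the labelled libraries. The labelled libraries spread most, from 30.0 to 54.2, and were below K562, with a log2 fold change of -0.75 (SE 0.20, adjusted p = 0.0146), while against K562/IM the log2 fold change of -0.54 (SE 0.21, adjusted p = 0.0540) did not pass.

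CKS2 (chr9:89311198-89316703, plus strand), a small CDK subunit, stood at 79.3, 77.4 and 99.7 CPM in K562, 56.1, 66.0 and 61.1 in K562+L, 48.7, 49.7 and 45.5 in K562/IM and 50.9, 50.1 and 36.7 in the labelled libraries. K562 was above the other groups without overlap, with a log2 fold change of -0.48 (SE 0.12, adjusted p = 0.0171) in K562+L, -0.83 (SE 0.11, adjusted p = 4.9e-04) in K562/IM and -0.92 (SE 0.17, adjusted p = 0.00277) in the labelled libraries, each against K562. It was also the member with the shortest exons, 613 bases. CDC25C (chr5:138285265-138338355, minus strand), a phosphatase that activates CDK1, ran against the rest of this role. Its levels were 24.4, 24.2 and 25.04 CPM in K562, 22.6, 25.6 and 24.4 in K562+L, 33.5, 31.8 and 33.6 in K562/IM and 37.7, 36.3 and 35.8 in the labelled libraries, so that K562/IM and the labelled libraries each lay above K562 and K562+L. The log2 fold change against K562 was 0.42 (SE 0.071, adjusted p = 0.00158) in K562/IM and 0.55 (SE 0.082, adjusted p = 0.00109) in the labelled libraries. CCNB2 (chr15:59105078-59125045, plus strand), cyclin B2, held 106.9, 110.2 and 115 CPM in K562, 103, 113 and 109 in K562+L, 92.2, 92.999 and 93.9 in K562/IM and 116, 124 and 105 in the labelled libraries. The labelled libraries exceeded K562/IM, at a log2 fold change of 0.33 (SE 0.075, adjusted p = 0.00597), and overlapped K562. CDC25B, a related phosphatase, had log2 fold changes of 0.050, -0.0080 and 0.028 in K562+L against K562, K562/IM against K562 and the labelled libraries against K562/IM, with no call. CDCA3, a regulator of mitotic entry, fell by 0.44 on the log2 scale in K562/IM and by 0.74 in the labelled libraries against K562.

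**Figure D3:**
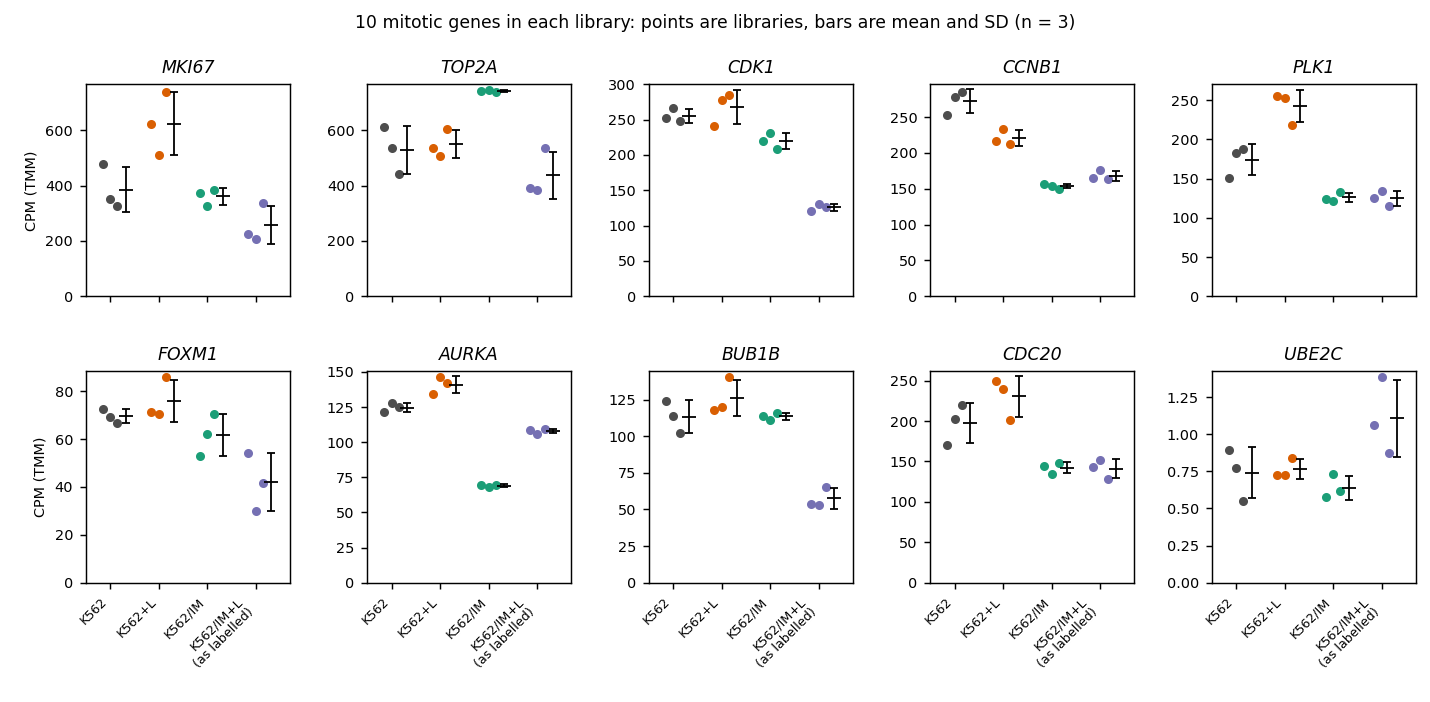
CPM (vertical axis, TMM-scaled) of 10 genes in each library, by group. Each point is a library, and the bars give the mean and SD of the 3 libraries of a group. CDK1 and BUB1B are lowest in the labelled libraries, PLK1 is highest in K562+L, and AURKA and CCNB1 are lowest in K562/IM.

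All 5 spindle checkpoint genes were lower in the labelled libraries relative to K562/IM, and 4 of 5 were lower than in K562. Of all genes tested, 33.6% were lower in the first of these comparisons and 27.8% in the second. BUB1B (chr15:40161023-40221136, plus strand), the checkpoint protein BubR1, stood at 124, 114 and 102 CPM in K562, 118, 119.9 and 140.5 in K562+L, 114, 111 and 116 in K562/IM and 53.8, 53.2 and 65.5 in the labelled libraries. The labelled libraries held less than all 9 others, which overlapped among themselves. The log2 fold change was -0.96 (SE 0.10, adjusted p = 1.0e-04) against K562/IM and -1.005 (SE 0.12, adjusted p = 3.4e-04) against K562. MAD2L1 (chr4:120055608-120067074, minus strand), the checkpoint protein Mad2, stood at 130.4, 134 and 133 CPM in K562, 105, 113 and 118 in K562+L, 106, 115 and 104 in K562/IM and 56.8, 60.5 and 55.9 in the labelled libraries. K562 lay above all other libraries and the labelled libraries below them, with a log2 fold change of -1.22 (SE 0.079, adjusted p = 2.9e-05) in the labelled libraries against K562 and -0.89 (SE 0.070, adjusted p = 2.8e-05) against K562/IM. Its lower level in K562+L, -0.24 (SE 0.081, adjusted p = 0.0470), was lost in 8 of 16 alternatives, including 5 of the 6 fits that left out a library. The kinases BUB1 and TTK and the BUB1 partner BUB3 had log2 fold changes of -0.46 to -0.24 in the labelled libraries against K562/IM (adjusted p from 0.00184 to 0.0136). With the length trend of each library removed, as described further on, BUB3 lost its call at -0.049 (SE 0.068, adjusted p = 0.540), so that 4 of the 5 were lower than in K562/IM and 5 than in K562. In K562+L against K562 the same 3 genes had -0.047 to 0.25, with no call.

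Of the 4 genes of anaphase and its trigger, 3 were lower in K562/IM than in K562, against 27.1% of all genes. In the labelled libraries relative to K562/IM, 2 of the 4 were higher, against 33.2% of all genes. CDC20 (chr1:43358955-43363203, plus strand), the activator of the anaphase-promoting complex that the checkpoint restrains, stood at 171, 203 and 219 CPM in K562, 249.97, 240.2 and 202 in K562+L, 144, 135 and 148 in K562/IM and 143, 152 and 128 in the labelled libraries. K562/IM and the labelled libraries overlapped and were both below K562 at log2 fold changes of -0.47 (SE 0.10, adjusted p = 0.00503) and -0.51 (SE 0.12, adjusted p = 0.00996). PTTG1 (chr5:160421822-160428744, plus strand), securin, the inhibitor of separase, held 133, 147 and 168 CPM in K562, 109, 125 and 117 in K562+L, 113, 125 and 115 in K562/IM and 157, 171 and 127 in the labelled libraries. K562 was above K562+L and K562/IM, and the labelled libraries were above K562/IM and overlapped K562. Its log2 fold change was -0.35 (SE 0.11, adjusted p = 0.0362) in K562+L and 0.39 (SE 0.11, adjusted p = 0.0173) in the labelled libraries against K562/IM, calls lost in 7 of 16 and 6 of 16 alternatives. A near-identical relative, PTTG2, makes its counts uncertain. ESPL1, separase itself, rose by 0.41 on the log2 scale in K562+L and fell by 0.24 on the log2 scale in K562/IM, each against K562.

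UBE2C (chr20:45812576-45816957, plus strand), the ubiquitin-conjugating enzyme of the anaphase-promoting complex, was barely detected. It held 0.896, 0.775 and 0.553 CPM in K562, 0.727, 0.727 and 0.843 in K562+L, 0.575, 0.729 and 0.615 in K562/IM and 1.06, 1.39 and 0.872 in the labelled libraries. Per kilobase of exon it stood at 0.576 CPM in K562, the lowest of the 55, where the next lowest, CDCA3, had 5.99 and the median was 26.1. The labelled libraries were above K562/IM and overlapped K562. The log2 fold change of 0.81 (SE 0.29, adjusted p = 0.0384) was lost in 9 of 16 alternatives, and no other comparison of UBE2C passed.

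Centromere and kinetochore genes split by comparison. SPC25 (chr2:168834132-168913371, minus strand), a subunit of the NDC80 complex that holds microtubules, stood at 89.8, 99.3 and 97.7 CPM in K562, 74.8, 92.1 and 80.0 in K562+L, 87.6, 93.5 and 80.3 in K562/IM and 36.2, 36.4 and 33.3 in the labelled libraries. The 3 labelled libraries were below every other library. Its fall of -1.28 (SE 0.079, adjusted p = 9.0e-06) on the log2 scale against K562/IM and -1.46 (SE 0.087, adjusted p = 2.3e-05) against K562 was the steepest fall among the 55 genes in both comparisons. Its partner NUF2 fell by 0.42 on the log2 scale against K562/IM (adjusted p = 0.00127), whereas NDC80, another subunit of the complex, had a log2 fold change of -0.11 (SE 0.060, adjusted p = 0.146). NDC80 was higher in K562+L, at 188, 225 and 224 CPM against 135, 134 and 129.8 in K562, at a log2 fold change of 0.68 (SE 0.094, adjusted p = 0.00183).

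CENPA (chr2:26764289-26801067, plus strand), the histone H3 variant of centromeres, held 32.2, 36.6 and 33.8 CPM in K562, 23.6, 30.3 and 24.9 in K562+L, 24.2, 26.3 and 22.3 in K562/IM and 23.7, 26.3 and 24.7 in the labelled libraries. K562 lay above all 9 other libraries, with a log2 fold change of -0.38 (SE 0.12, adjusted p = 0.0342) in K562+L and -0.50 (SE 0.093, adjusted p = 0.00261) in K562/IM. The first of these calls was lost in 6 of 16 alternatives. CENPE, a kinetochore motor, was higher in K562+L at a log2 fold change of 0.64 (SE 0.16, adjusted p = 0.0171), and CENPF, a large kinetochore protein, was not called in a pairwise comparison (log2 fold changes from -0.42 to 0.34). Both have long transcripts and differed between libraries of a group, CENPE from 70.6 to 146 CPM in the labelled libraries.

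In the Aurora group, AURKA (chr20:56369389-56392337, minus strand), the Aurora A kinase of centrosomes and spindle poles, stood at 121, 128 and 125 CPM in K562, 134, 146 and 142 in K562+L, 69.4, 68.3 and 69.8 in K562/IM and 108, 106 and 109 in the labelled libraries. K562/IM was below all other libraries, the labelled libraries came next and K562+L was highest, with no overlap between any groups. AURKA had a log2 fold change of -0.85 (SE 0.064, adjusted p = 3.0e-05) in K562/IM against K562, the steepest fall among the 55 in that comparison, and 0.66 (SE 0.060, adjusted p = 5.6e-05) in the labelled libraries against K562/IM. The difference of the labelled libraries from K562, -0.23 (SE 0.073, adjusted p = 0.0308), was lost in 7 of 16 alternatives. BIRC5 (chr17:78214186-78225636, plus strand), survivin of the chromosomal passenger complex, held 162, 181 and 192 CPM in K562, 194, 226 and 186 in K562+L, 122, 129.5 and 124 in K562/IM and 122, 133 and 106 in the labelled libraries. K562/IM and the labelled libraries overlapped each other and were below K562 at log2 fold changes of -0.51 (SE 0.082, adjusted p = 0.00123) and -0.59 (SE 0.12, adjusted p = 0.00449). AURKB, the Aurora kinase of that complex, had no call (log2 fold changes from -0.45 to -0.20), and CDCA8, borealin, was lower in the labelled libraries relative to K562 at a log2 fold change of -0.34 (SE 0.080, adjusted p = 0.00880).

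Kinesin motors were among the genes with the widest difference between the lycorine comparisons. KIF11 (chr10:92593286-92655395, plus strand), the motor Eg5 that pushes spindle poles apart, stood at 123.1, 118 and 92.7 CPM in K562, 159.9, 166 and 174 in K562+L, 124, 125 and 121 in K562/IM and 52.1, 50.1 and 64.3 in the labelled libraries. The K562+L libraries were above and the labelled libraries below all others, and K562 and K562/IM overlapped. Its log2 fold change was 0.58 (SE 0.12, adjusted p = 0.00741) in K562+L against K562 and -1.13 (SE 0.11, adjusted p = 6.9e-05) in the labelled libraries against K562/IM. KIF14 (chr1:200551497-200620734, minus strand), a motor of the central spindle and midbody, held 143, 115 and 82.9 CPM in K562, 163, 146 and 189 in K562+L, 149, 142 and 152 in K562/IM and 60.1, 55.2 and 95.5 in the labelled libraries. The 3 K562 libraries spanned 82.9 to 143 CPM, and the log2 fold change in K562+L of 0.55 (SE 0.19, adjusted p = 0.0557) did not pass, while the fall in the labelled libraries against K562/IM was -1.05 (SE 0.20, adjusted p = 0.00256).

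KIF20B (chr10:89701610-89774939, plus strand), a motor needed for the last steps of cytokinesis, held 123.03, 98.3 and 73.3 CPM in K562, 133, 125 and 152 in K562+L, 102, 101 and 102 in K562/IM and 45.5, 47.1 and 70.2 in the labelled libraries. The labelled libraries lay below all others, at a log2 fold change of -0.88 (SE 0.17, adjusted p = 0.00237) against K562/IM. KIF20A (chr5:138178719-138187715, plus strand), which carries the passenger complex to the central spindle, held 81.0, 79.3 and 76.7 CPM in K562, 80.3, 80.4 and 83.5 in K562+L, 73.3, 70.4 and 74.6 in K562/IM and 81.5, 79.1 and 87.8 in the labelled libraries, a range of few CPM. The labelled libraries were above K562/IM at a log2 fold change of 0.21 (SE 0.072, adjusted p = 0.0330), a call lost in 7 of 16 alternatives. KIF18A and KIF4A, which act on chromosome alignment and the central spindle, were higher in K562+L at log2 fold changes of 0.48 (SE 0.11, adjusted p = 0.0113) and 0.38 (SE 0.095, adjusted p = 0.0163), and the counts of KIF4A may share reads with its retrocopy KIF4B. KIF2C and KIF23 were lower in the labelled libraries relative to K562/IM by 0.29 and 0.28.

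Proteins that bind spindle microtubules had the largest number of higher calls in K562+L, 6 of 9, against 18.2% of all genes. As a share this equals the 4 of 6 genes of chromosome structure. In the labelled libraries relative to K562/IM, 6 of the 9 were lower, against 33.6% of all genes. ASPM (chr1:197084128-197146694, minus strand), which focuses spindle poles, stood at 242, 184 and 141 CPM in K562, 351, 296 and 418 in K562+L, 252, 231 and 239 in K562/IM and 102, 95.7 and 163 in the labelled libraries. K562+L lay above all other libraries, and the libraries of every group except K562/IM spread widely. Its log2 fold change was 0.91 (SE 0.20, adjusted p = 0.0104) in K562+L and -0.98 (SE 0.20, adjusted p = 0.00356) in the labelled libraries against K562/IM. GTSE1 (chr22:46296741-46330810, plus strand), a microtubule protein of G2 and mitosis, held 30.3, 33.5 and 33.0 CPM in K562, 60.5, 58.1 and 52.6 in K562+L, 37.4, 38.1 and 35.6 in K562/IM and 27.3, 24.7 and 25.99 in the labelled libraries. None of the groups overlapped, in the order K562+L, K562/IM, K562 and labelled libraries, with log2 fold changes of 0.82 (SE 0.093, adjusted p = 8.1e-04) and -0.49 (SE 0.074, adjusted p = 7.7e-04) in the same comparisons.

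HMMR (chr5:163460203-163491945, plus strand), a spindle assembly factor, stood at 142, 137 and 121 CPM in K562, 184, 194 and 209 in K562+L, 161, 179.7 and 167 in K562/IM and 112, 115 and 135 in the labelled libraries. It was higher than in K562 in both K562+L, at a log2 fold change of 0.55 (SE 0.095, adjusted p = 0.00407), and K562/IM, at a log2 fold change of 0.34 (SE 0.086, adjusted p = 0.00988), and lower in the labelled libraries relative to K562/IM, at a log2 fold change of -0.47 (SE 0.10, adjusted p = 0.00342). CKAP2 (chr13:52455429-52476628, plus strand), which stabilizes spindle microtubules, held 90.4, 86.3 and 71.2 CPM in K562, 138, 139 and 149.8 in K562+L, 93.4, 95.7 and 91.3 in K562/IM and 79.6, 78.7 and 96.1 in the labelled libraries. K562+L was above all other libraries, at a log2 fold change of 0.78 (SE 0.11, adjusted p = 0.00179) against K562, and the labelled libraries overlapped K562 and K562/IM. TPX2, which activates Aurora A, was higher in K562+L at a log2 fold change of 0.25 (SE 0.070, adjusted p = 0.0261) and lower in the labelled libraries relative to K562/IM at a log2 fold change of -0.53 (SE 0.074, adjusted p = 5.2e-04). NUSAP1 (chr15:41332694-41381050, plus strand), a microtubule bundling protein, was called higher in the labelled libraries against both lines. Its levels were 128, 127 and 124 CPM in K562, 133, 145 and 145 in K562+L, 130.5, 132 and 134 in K562/IM and 148, 149 and 149 in the labelled libraries, highest in the labelled libraries, which were above K562 at a log2 fold change of 0.21 (SE 0.073, adjusted p = 0.0411), a call lost in 9 of 16 alternatives, including all 6 fits that left out a library. PRC1 and TACC3, which cross-link microtubules of the spindle, fell by 0.59 and 0.53 on the log2 scale in the labelled libraries against K562/IM, and DLGAP5 rose by 0.36 on the log2 scale in K562+L.

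Of the 3 cytokinesis genes, RACGAP1, a subunit of centralspindlin, was higher in K562+L at a log2 fold change of 0.54 (SE 0.080, adjusted p = 0.00232). ANLN, the actin-binding anillin, and ECT2, the exchange factor of RhoA, were lower in the labelled libraries relative to K562/IM at log2 fold changes of -0.46 (SE 0.13, adjusted p = 0.0137) and -0.48 (SE 0.10, adjusted p = 0.00387). Among the 6 genes of chromosome structure, 4 were higher in K562+L and 3 lower in the labelled libraries against K562/IM. The shares of all genes were 18.2% and 33.6%. MKI67 (chr10:128096659-128126385, minus strand), which encodes the proliferation antigen Ki-67 that coats mitotic chromosomes, stood at 478, 353 and 325 CPM in K562, 623, 509 and 739 in K562+L, 372, 325 and 385 in K562/IM and 227, 208 and 337 in the labelled libraries. The K562+L libraries were above all others, and the other groups overlapped. For K562+L against K562 the log2 fold change was 0.69 (SE 0.18, adjusted p = 0.0178), lost without replicate 2 of K562 or replicate 1 or 3 of K562+L (adjusted p up to 0.0665). In the labelled libraries it was -0.46 (SE 0.18, adjusted p = 0.0563) against K562/IM, and -0.61 (SE 0.22, adjusted p = 0.0451) against K562, the second lost in 8 of 16 alternatives.

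TOP2A (chr17:40388516-40417950, minus strand), topoisomerase IIα, which untangles sister chromatids, stood at 612, 534 and 440.5 CPM in K562, 535, 509 and 606 in K562+L, 741, 747 and 739 in K562/IM and 393, 383 and 535 in the labelled libraries. K562/IM was above all other libraries, at a log2 fold change of 0.49 (SE 0.11, adjusted p = 0.00744) against K562, the largest rise among the 55 in that comparison, and the other groups overlapped. The labelled libraries were lower than K562/IM at a log2 fold change of -0.74 (SE 0.13, adjusted p = 0.00190). NCAPG (chr4:17810902-17844862, plus strand), a condensin subunit, held 152, 149 and 131 CPM in K562, 249.4, 258 and 278 in K562+L, 151, 151 and 154 in K562/IM and 101, 97.997 and 105 in the labelled libraries. K562+L was above and the labelled libraries below all others, with a log2 fold change of 0.86 (SE 0.092, adjusted p = 6.7e-04) against K562 and -0.56 (SE 0.065, adjusted p = 1.8e-04) against K562/IM. SMC4, the condensin ATPase, had a log2 fold change of 0.29 (SE 0.14, adjusted p = 0.145) and -0.66 (SE 0.12, adjusted p = 0.00198) in the same comparisons, and NCAPD2, another condensin subunit, 0.24 (SE 0.077, adjusted p = 0.0378) and -0.043 (SE 0.10, adjusted p = 0.724). CDCA2, a phosphatase partner on chromosomes, was higher in K562+L at a log2 fold change of 0.33 (SE 0.11, adjusted p = 0.0443).

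The difference between the lycorine comparisons, as labelled, was tested in 1 fit of all 12 libraries, as an interaction, the log2 fold change in the labelled libraries against K562/IM minus the log2 fold change in K562+L against K562. This difference was below 0 for 40 of the 55 genes and above 0 for 5, against 31.7% and 29.9% of the 13995 genes tested, and its median was -0.54 (all genes -0.020). The widest were ASPM at -1.91 (SE 0.32, adjusted p = 2.6e-04), KIF11 at -1.73 (SE 0.16, adjusted p = 3.0e-06), KIF14 at -1.62 (SE 0.31, adjusted p = 7.1e-04), NCAPG at -1.45 (SE 0.10, adjusted p = 3.4e-07) and KIF20B at -1.38 (SE 0.27, adjusted p = 8.1e-04). Above 0 were PTTG1 at 0.71 (SE 0.16, adjusted p = 0.00262), AURKA at 0.46 (SE 0.082, adjusted p = 4.2e-04), CCNB1 at 0.44 (SE 0.10, adjusted p = 0.00191), CENPA at 0.42 (SE 0.15, adjusted p = 0.0276) and CCNB2 at 0.34 (SE 0.10, adjusted p = 0.0122). With the length trend of each library removed all 5 of these calls were lost, with PTTG1 at 0.12 (SE 0.10, adjusted p = 0.342), AURKA at 0.13 (SE 0.10, adjusted p = 0.269) and CCNB1 at 0.0026 (SE 0.076, adjusted p = 0.987). The call of CENPA was lost in 5 of the 12 fits that left out a library, those without replicate 2 of K562, replicate 1 or 3 of K562+L, replicate 3 of K562/IM or replicate 2 of the labelled libraries.

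Of the genes that passed the interaction, 8 also passed in both lycorine comparisons and in opposite directions. The share of all genes tested with these pairs of calls, or those counted below, was not computed, so the counts have no background. CCNA2, KIF11, TPX2, HMMR, ASPM, GTSE1 and NCAPG were higher in K562+L against K562 and lower in the labelled libraries against K562/IM, and PTTG1 was lower and then higher. Over all 55 genes, 12 were higher in K562+L and not called in the labelled libraries, 3 were lower in K562+L and not called in the labelled libraries, 5 were higher in the labelled libraries and not called in K562+L, 17 were called lower in the labelled libraries and not called in K562+L, 9 were called in neither, and MAD2L1 was lower in both. MKI67 had an interaction of -1.18 (SE 0.28, adjusted p = 0.00316), BUB1B of -1.13 (SE 0.15, adjusted p = 3.9e-05), CDK1 of -0.87 (SE 0.11, adjusted p = 3.0e-05), PLK1 of -0.49 (SE 0.14, adjusted p = 0.00942) and FOXM1 of -0.69 (SE 0.25, adjusted p = 0.0321), the last lost in 6 of 21 alternatives. The plot of the lycorine comparisons against each other places most genes to the right of 0 and below 0.

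**Figure D4:**
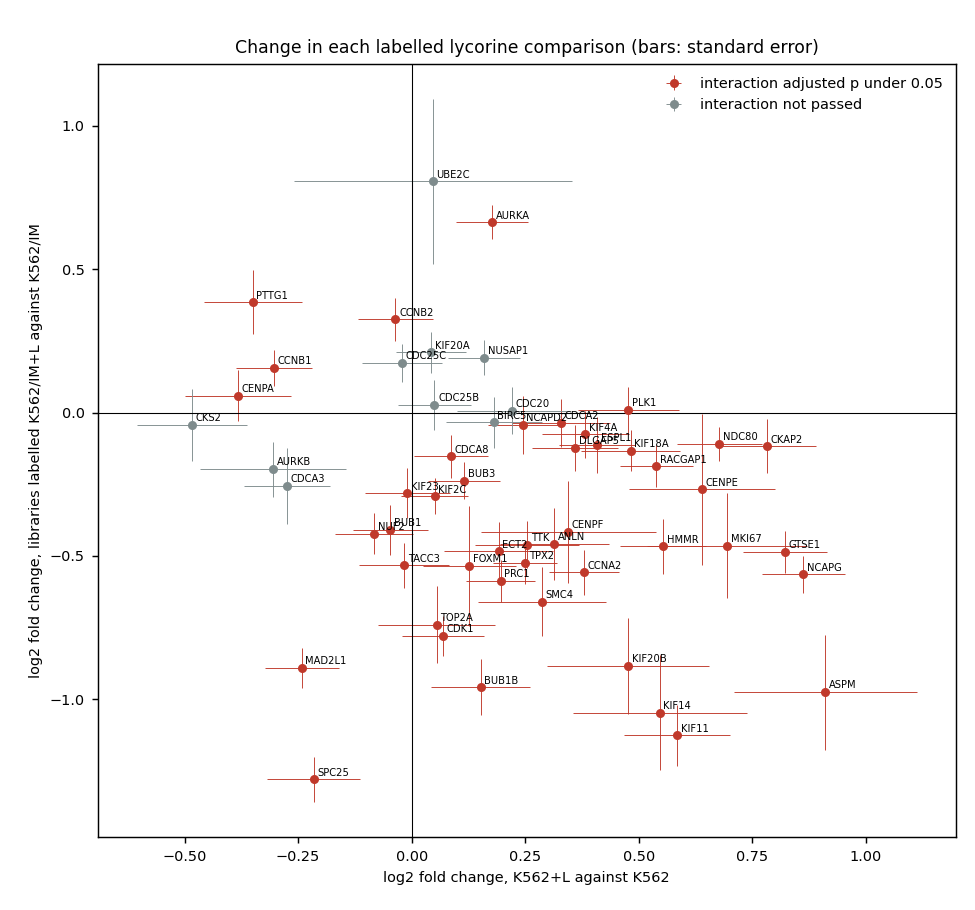
Each of the 55 genes by its log2 fold change in K562+L against K562 (horizontal axis) and in the labelled libraries against K562/IM (vertical axis), with standard errors as bars. Red points passed the test of the difference between these changes, grey points did not. ASPM, KIF11, KIF14, NCAPG and KIF20B lie farthest toward the lower right.

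Transcript length moved with these changes. The exons of the 55 genes add up to 613 bases in CKS2 to 12807 in MKI67 in GENCODE release 29, with a median of 4487. Over the 55 genes, Spearman's rho between exon length and log2 fold change was 0.45 in K562+L against K562 (all genes 0.28), 0.46 in K562/IM against K562 (0.20), -0.49 in the labelled libraries against K562/IM (-0.20), -0.15 in the labelled libraries against K562 (-0.059) and -0.54 for the interaction (-0.25), values over genes that share libraries and are not independent. Libraries of the same group differed along the same axis. Against the mean of the other libraries of its group, rho was 0.60 in replicate 1 and -0.58 in replicate 3 of K562, -0.63 in replicate 2 and 0.49 in replicate 3 of K562+L, and -0.70 in replicate 2 and 0.68 in replicate 3 of the labelled libraries. The 5 genes lower in K562+L included CKS2, CENPA, PTTG1 and CCNB1, with exons of 613 to 2558 bases.

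The fits were therefore repeated with the length trend of each library removed, an alternative chosen after seeing the data. In K562+L against K562, 24 higher and 2 lower genes were then called, and 18 of the 19 higher genes were shared. Among the 5 lower genes MAD2L1 kept its call, and CKS2 changed sign to 0.10 (SE 0.10, adjusted p = 0.436). In the labelled libraries against K562/IM the calls were 1 higher and 31 lower, with 23 of the 25 lower genes shared. AURKA stayed higher at a log2 fold change of 0.49 (SE 0.070, adjusted p = 4.6e-04), while UBE2C, PTTG1, CCNB2, KIF20A and NUSAP1 lost the call. CDC20 moved from 0.0072 to -0.31 (SE 0.066, adjusted p = 0.00337). For the interaction, 38 genes were below 0, 33 of them shared, and CENPA and CCNB2 changed sign. ASPM stood at -1.47 (SE 0.20, adjusted p = 5.6e-05), KIF11 at -1.76 (SE 0.16, adjusted p = 1.3e-06) and MKI67 at -0.65 (SE 0.16, adjusted p = 0.00365). In K562/IM against K562 the calls were 6 higher and 15 lower, and against K562 the labelled libraries had 1 higher and 36 lower. Over all genes this setting called 2588 higher and 2498 lower of 12927 in K562+L against K562. In K562/IM against K562 it called 3859 and 4035 of 13406. The labelled libraries had 4715 and 4754 of 13727 against K562/IM, and 3981 and 4139 of 13307 against K562. For the interaction 4025 were above and 4548 below 0 of 13995.

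**Figure D5:**
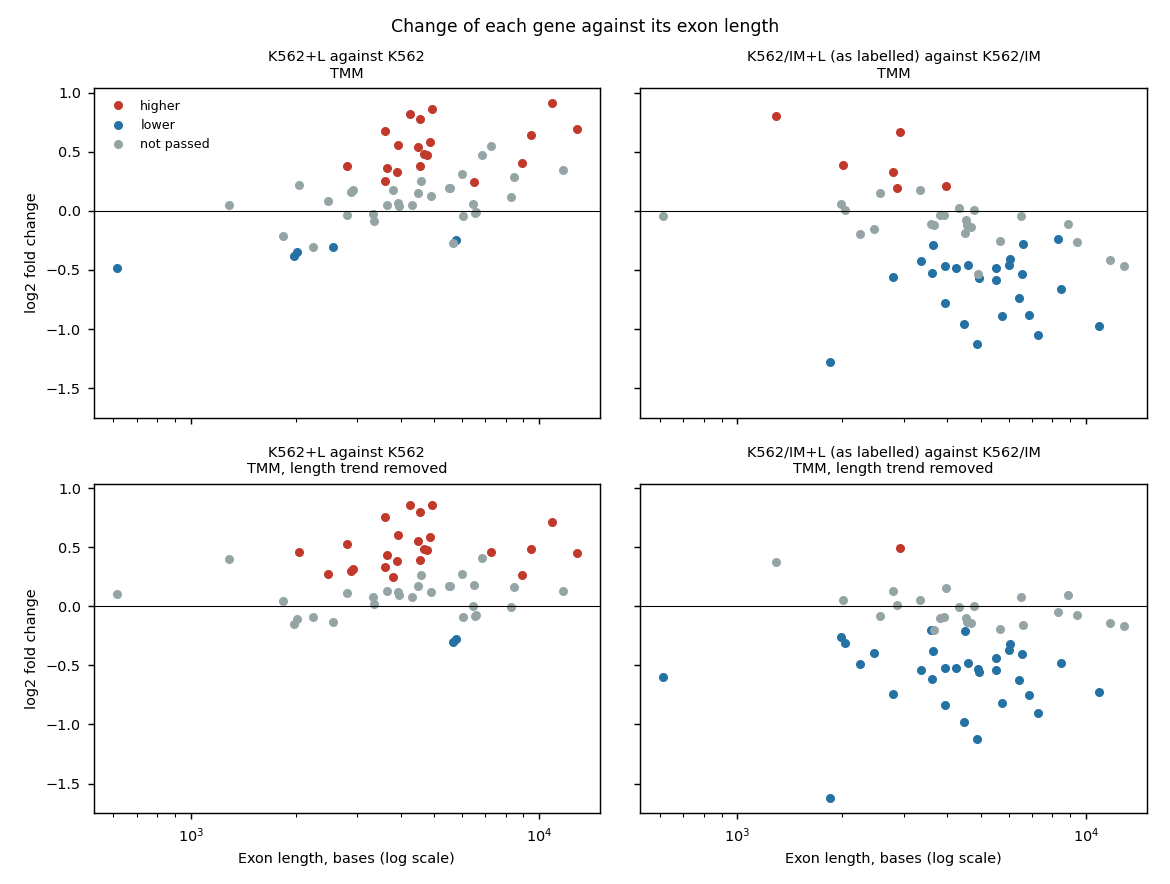
Log2 fold change (vertical axis) of each of the 55 genes against its exon length in bases (horizontal axis, log scale), in K562+L against K562 (left) and in the labelled libraries against K562/IM (right), with TMM alone (top) and with the length trend of each library removed (bottom). Red points are called higher, blue lower and grey not called. The higher calls at short lengths in the upper right panel are reduced to AURKA in the lower right panel.

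Other genes of cell division were counted for comparison from lists written with earlier results of these data known. Among all genes tested, 18.2% were higher and 19.0% lower in K562+L against K562, and 33.2% and 33.6% in the labelled libraries against K562/IM. In K562/IM against K562 they were 30.1% and 27.1%, and in the labelled libraries against K562 28.2% and 27.8%. The interaction was above 0 for 29.9% and below 0 for 31.7%. The counts of these lists stand against those shares. Genes of DNA replication and S phase showed 15 higher and 1 lower of 43 in K562+L against K562 (median 0.17) and 4 higher and 33 lower of 43 in the labelled libraries against K562/IM (median -0.51). Against K562, 39 of the 43 were lower in the labelled libraries (median -0.76) and 21 in K562/IM (median -0.21). POLE of leading-strand synthesis, CCNE2, which is cyclin E2, and MCM10 of origin firing had log2 fold changes of -1.503 (adjusted p = 1.4e-05), -1.502 (adjusted p = 0.00331) and -1.40 (adjusted p = 1.8e-05) in the labelled libraries against K562/IM, and GINS2 of the replicative helicase had a log2 fold change of -1.04 (adjusted p = 6.9e-05) in K562/IM against K562. The interaction was below 0 for 32 of the 43.

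Of 14 further condensin and cohesin genes, 8 were higher and 1 lower in K562+L against K562, and 2 higher and 9 lower in the labelled libraries against K562/IM. The cohesin subunit STAG1 had a log2 fold change of 1.42 (adjusted p = 4.3e-04) in the first and the condensin II subunit NCAPD3 -1.35 (adjusted p = 3.0e-04) in the second. For 34 further centromere and kinetochore genes these counts were 11 and 5, then 10 and 14. In the second, the kinetochore scaffold KNL1 had a log2 fold change of -1.07 (adjusted p = 0.00175), ZWILCH of the corona -0.99 (adjusted p = 3.3e-05) and SKA1 of the microtubule-binding Ska complex 0.97 (adjusted p = 2.9e-05). For 17 genes of the anaphase-promoting complex and its partners they were 2 and 3, then 6 and 4, near the shares of all genes. In the second, ANAPC16 stood at 1.47 (adjusted p = 8.8e-06), ANAPC15 at 1.26 (adjusted p = 6.3e-05) and ANAPC1 at -1.16 (adjusted p = 4.6e-04). For 17 further spindle and cytokinesis genes, 4 were higher and 1 lower in K562+L, and 9 were lower in the labelled libraries, led by CEP55 of abscission at -1.49 (adjusted p = 5.9e-06). Of 8 centriole duplication genes 2 were higher in K562+L and 6 lower in the labelled libraries, where CENPJ had a log2 fold change of -1.57 (adjusted p = 1.2e-05).

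Genes that brake or license entry into mitosis moved in both directions. CDKN1A, the CDK inhibitor p21, stood at 11.9, 13.3 and 11.4 CPM in K562, 19.9, 22.0 and 22.5 in K562+L, 57.2, 57.4 and 54.2 in K562/IM and 6.79, 8.49 and 6.14 in the labelled libraries. K562/IM was above and the labelled libraries below all others, with no overlap between any groups. Its log2 fold change was 0.82 (adjusted p = 0.00133) in K562+L and 2.20 (adjusted p = 1.7e-06) in K562/IM, each against K562, -2.96 (adjusted p = 1.6e-06) in the labelled libraries against K562/IM and -3.80 (adjusted p = 7.7e-09) for the interaction. SFN, 14-3-3σ, which holds CDK1 and cyclin B in the cytoplasm, ran opposite to CDKN1A in these comparisons. Its levels were low, at 1.82, 2.65 and 2.82 CPM in K562, 0.739, 0.877 and 0.823 in K562+L, 0.263, 0.354 and 0.261 in K562/IM and 0.492, 1.04 and 0.766 in the labelled libraries. K562 lay above all other libraries and K562/IM below them. Its log2 fold change was -1.58 (adjusted p = 0.00282) in K562+L and -3.04 (adjusted p = 9.5e-05) in K562/IM, each against K562, 1.40 (adjusted p = 0.0164) in the labelled libraries against K562/IM and 2.95 (adjusted p = 1.3e-04) for the interaction. In the labelled libraries against K562, SFN was lower at -1.69 (adjusted p = 0.00462), and the levels of CDKN1A were lower as well. GADD45B, a stress-induced gene, was lower in K562+L, at -0.89 (adjusted p = 0.00698). WEE1, the kinase that inhibits CDK1, had a log2 fold change of 0.78 (adjusted p = 0.00176) in K562+L and an interaction of -1.73 (adjusted p = 4.6e-07). Of the 11 such genes tested (12 listed), 4 were higher and 2 lower in K562+L, 5 and 5 in K562/IM, and 2 and 7 in the labelled libraries against K562/IM. Of 13 subunits of DREAM and MYB-MuvB and their relatives, 1 was called in K562+L, LIN9, at 0.43 (adjusted p = 0.0179), and 3 were higher and 6 lower in the labelled libraries, among them RBL1, the pocket protein p107, at -1.49 (adjusted p = 1.1e-05).

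Split by the promoter letters printed here, the 34 genes with TTTGAA in the window had a median log2 fold change of 0.27 in K562+L. In the labelled libraries against K562/IM their median was -0.44. The 12 without these letters on either strand had 0.013 and -0.16, and other forms of the CHR were not searched in them. In the first of these comparisons 13 of the 34 and 3 of the 12 were called higher, and in the second 18 and 4 were called lower, against 18.2% of all genes higher in the first and 33.6% lower in the second. Among the 12 genes without TTTGAA these shares were near those of all genes, but they rest on few genes. The ranges overlapped, from -1.28 to 0.33 with TTTGAA and from -0.56 to 0.39 without it in the second. These medians are descriptions, and the difference between the subsets was not tested. Exons of 22 of the 55 genes overlap exons of another gene in GENCODE release 29, among them CCNA2, BUB1B, PLK1, FOXM1, HMMR and NCAPG. Since the counting is not described, reads shared with those neighbours cannot be told apart.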

How the data were processed

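PolyA-enriched RNA of 12 libraries in 4 groups was sequenced by a company, and the authors deposited 1 table of raw counts per gene symbol, which the text uses. The submitters' processing notes name FastQC, STAR, StringTie, DESeq2 and hg38, and how reads were counted, strand included, is not given in the sources used here. Of 23289 values from 1 to 25, 67.9% were a multiple of 4 or 1 above it, against 52% of whole numbers in that range. The 52% takes each whole number equally often, which low counts need not do, and the cause of this excess was not tested. The totals were 75093844 to 107344598 counts, and the depth in fragments is unknown. Replicates of a group differed by a chi-square of 8.00 to 49.6 per degree of freedom of counts divided by 4, and none was a repeat deposit.

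Groups came from the sample labels. Counts were tested in R 4.3.3 with edgeR 4.0.16 (filterByExpr with a minimum count of 10, TMM, quasi-likelihood F test), each pairwise comparison on its own 6 libraries and the interaction on all 12, with Benjamini-Hochberg adjustment over all genes tested and a threshold of 0.05. An exact permutation test of 3 against 3 libraries cannot go below a two-sided p of 0.1 and was not used. Replicate numbers came from the labels. In a test on simulated data with 200 changed genes, all 100 genes changed by 1 and all 100 changed by 2 on the log2 scale were recovered in each pairwise comparison, with 14 false calls in K562+L against K562 (12897 genes), 5 in K562/IM against K562 (12887), 11 in the labelled libraries against K562/IM (13475) and 13 against K562 (12858). For the interaction 99 and 100 were recovered, with 8 false calls (13042 genes). The simulated counts had a fixed dispersion and no trend with transcript length, and only genes with higher counts were changed. The recovery therefore does not describe changes smaller than 1 or libraries that differ along length.

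The 55 genes and the other lists were chosen with earlier results of these data known. Values by library are given for 10 genes (MKI67, TOP2A, CDK1, CCNB1, PLK1, FOXM1, AURKA, BUB1B, CDC20 and UBE2C) and, in each comparison, for the 5 called genes in each direction with the largest log2 fold change. Genes of other lists are given by counts and by up to 4 examples a comparison, taken in order from the largest change among the called. The other genes of the 55 are named by role, and ABCB1 and cell type markers as checks of the labels. Alternatives were DESeq2 1.42.0, size factors by relative log expression, upper-quartile scaling, library totals, other filters, counts divided by 4, a fold threshold of 1, a fit over all 12 libraries, a replicate block, each library left out, and, chosen after seeing the data, removal of each library's trend with transcript length (lowess on log2 exon length, as an offset).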

Additional observations from a re-analysis of the deposited data

Results flagged for a closer look

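The lycorine comparisons, as labelled, differed by edgeR's test of the interaction most widely in ASPM at -1.91, KIF11 at -1.73, KIF14 at -1.62, NCAPG at -1.45 and KIF20B at -1.38 on the log2 scale, each the change in the libraries with the label K562/IM+L relative to K562/IM minus that in K562+L against K562. These are the genes with the widest called difference among the 55, and their adjusted p-values stand in the report. ABCB1 and the summed level of the erythroid genes set the labelled libraries apart from all others, and the part of this in the differences was not tested. Groups of 3 libraries are too small for the check of single libraries far from the rest of their group.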

How the results depend on the processing

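Of the single-gene values and calls recomputed under the alternatives, 1304 kept the side of the threshold, 103 lost the call and 23 gained it. A further 4 changed sign with a call before or after. Changes of sign without a call in either fit are counted among the 1304. Those 4 came with the length trend removed, CKS2 at 0.10 in K562+L against K562, CDC20 at -0.31 in the labelled libraries against K562/IM, and CENPA at -0.16 and CCNB2 at -0.035 in the interaction. The same setting gave 2 lower genes and a median of 0.24 in K562+L against K562, 6 higher in K562/IM against K562, 1 higher in the labelled libraries against K562/IM and 1 against K562, and in the interaction 0 genes above 0 by edgeR and a median of -0.65. Requiring a log2 fold change beyond 1 left 0 higher and 0 lower in K562+L and in K562/IM against K562, 0 and 3 in the labelled libraries against K562/IM, and 0 and 6 against K562. Upper-quartile scaling gave 7 higher in K562/IM against K562, medians of -0.21 and -0.24 in the labelled libraries against K562/IM and K562, and in the interaction 8 above 0 with a median of -0.42. Library totals gave 18 higher, 9 lower and a median of 0.15 in K562/IM against K562, 1 higher, 39 lower and a median of -0.44 in the labelled libraries against K562/IM, and in the interaction 3 above 0 and a median of -0.73. Over all genes, upper-quartile scaling called 4368 higher of 13406 in K562/IM against K562 and 4688 above 0 of 13995 in the interaction. Library totals called 5430 higher and 2447 lower in K562/IM against K562. In the labelled libraries against K562/IM library totals called 3616 and 5747 of 13727, and in the interaction 3483 above 0. In K562/IM against K562 the higher genes numbered 7 with at least 10 counts in every library, 5 with counts divided by 4 and 6 in a fit of all 12 libraries. Without a low-count filter 1 gene was higher in the labelled libraries than in K562.

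With 1 library left out at a time, K562+L against K562 had 12 to 24 higher and 0 to 7 lower genes with medians of 0.17 to 0.21, and K562/IM against K562 had 3 to 9 and 9 to 18 with medians of -0.11 to -0.017. The labelled libraries had 2 to 8 higher and 23 to 32 lower against K562/IM with medians of -0.28 to -0.25, and 1 higher and 25 to 38 lower against K562 with medians of -0.44 to -0.38. The interaction had 4 to 6 above and 33 to 40 below 0, with medians of -0.62 to -0.52. Over all genes the same fits called 1327 to 2891 higher and 1544 to 2932 lower in K562+L against K562. In K562/IM against K562 they called 3327 to 4510 and 2964 to 4324. The labelled libraries had 4052 to 4959 and 4049 to 5222 against K562/IM, and 3074 to 3742 and 3051 to 3699 against K562. The interaction had 3783 to 4321 above and 4106 to 4643 below 0. Same-numbered libraries correlated above 0.1 in 4 of 18 pairs (r from -0.57 to 0.41). Libraries of a group also differed along transcript length, so that this check could not show whether the numbers pair the samples. With a replicate block, 14 genes were higher and 1 lower in K562+L, 3 and 13 in K562/IM, 4 and 28 in the labelled libraries against K562/IM, 1 and 23 against K562, and 5 above and 39 below 0 in the interaction. Over all genes the block called 1488 higher and 1638 lower of 12927 in K562+L, and 3801 and 3337 of 13406 in K562/IM. The labelled libraries had 4329 and 4539 of 13727 against K562/IM, and 2912 and 2788 of 13307 against K562. For the interaction 4014 were above and 4305 below 0 of 13995. The cause of these shifts was not tested.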
